A study of Mus musculus with 14 samples.

Results

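The genes described here encode the machinery that docks, primes and fuses synaptic vesicles. They are 35 listed mouse symbols, all of which matched 1 row each among the 48440 genes of the count table. Bulk RNA-seq of total RNA covered 3 brain regions of C57BL/6 mice in 14 libraries. CARIP knockout mice (genotype CARIP-/-) gave 3 libraries of cerebellum, 2 of hippocampus and 2 of cerebral cortex, the last titled Cerebrum by the submitters. Wild-type mice of that strain gave 3, 2 and 2. Age, sex, how the allele was made and whether a library pools mice are not given in the labels. CARIP matches neither a symbol nor an alias in the annotation, so its own transcript could not be used to check the knockout. The labels do not say that libraries came from separate mice, so p-values measure only the spread between libraries, which may be technical.

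At a synapse, vesicle and plasma membrane SNARE proteins zip together to fuse the membranes, synaptotagmins trigger that step when calcium enters, and complexins hold and help it. Munc13 proteins, RIMs and large scaffolds such as Bassoon and Piccolo prepare vesicles at the active zone, the patch of membrane where release takes place. Most of these proteins come from families of paralogues, and neurons of different brain regions use different members, so the balance within a family is a known mark of the synapses of a region.

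Levels below are CPM, the reads of a gene scaled to a common library total after TMM adjustment. Libraries held 20055166 to 38770999 counted reads. All 35 genes passed the filter on low counts, and the fewest reads of any of them in any library was 6. Shares within a family use counts divided by the merged exon length of each gene. Summed defining markers were highest in the labelled region, though not every gene was: those of hippocampal excitatory neurons gave 2107 to 3029.7 CPM in hippocampus, 755 to 961 in cerebellum and 595 to 1001 in cortex, but Pdzd2 of that list had 93.7 to 216 CPM in hippocampus and 201 to 318 in cortex. Gabra6, of cerebellar granule cells, had 295 to 516 CPM in cerebellum, 0 to 8.47 in hippocampus and 0 to 0.340 in cortex. Tbr1, of cortical excitatory neurons, had 0.819 to 1.95 CPM in cerebellum, 54.7 to 83.4 in hippocampus and 151 to 239.6 in cortex, whereas Neurod6, of the same list, had 210.1 to 246 in hippocampus and 39.9 to 53.2 in cortex. A set of 3 libraries stood apart from the others of their region and was left out in an alternative fit. Knockout cortex library 2 held the markers of striatal neurons at a summed 583 CPM, against 94.3 to 117 in the other cortical libraries. The cerebellar libraries numbered 2 held oligodendrocyte markers at 4298 CPM (knockout) and 8932 CPM (wild type), against 2258 to 3268 in the other cerebellar libraries. Choroid plexus markers set other libraries apart, at 1130.0 CPM in wild-type hippocampus library 2 (78.9 to 128 in the other hippocampal ones) and 20.1 CPM in wild-type cerebellum library 1 (629 to 1365 in the other cerebellar ones).

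The cerebellum differed from both forebrain regions in most of these genes and in the paralogues it used. Against cortex, 27 of the 35 genes differed, where 48.4% of all genes tested did (edgeR quasi-likelihood test, Benjamini-Hochberg adjusted p under 0.05 over 24680 genes). Of them 4 were higher in cerebellum, against 23.0% of all genes tested, and 23 were lower, against 25.3%. Against hippocampus, 28 differed (47.3% of all genes), 6 higher (22.6% of all genes) and 22 lower (24.7% of all genes). Hippocampus and cortex differed in 10, with 4 higher in hippocampus (5.49% of all genes) and 6 lower (6.48% of all genes). The median log2 fold change of the 35 genes was -0.67 for cerebellum minus cortex, -0.76 for cerebellum minus hippocampus and -0.25 for hippocampus minus cortex, where the medians over all genes were 0.00925, 0.0178 and -0.00163. The sum of 6 general neuronal markers that are not presynaptic moved with this, at 1880.5 to 2809 CPM in cerebellum, 3302 to 3577 in hippocampus and 3246 to 4302 in cortex. Map2 carried most of it (848 to 1297, 2043 to 2361 and 1869 to 2564 CPM in those regions), while Rbfox3 (278 to 420.4 CPM in cerebellum, 227 to 262 in hippocampus) and Elavl4 (89.9 to 117 and 53.0 to 70.5) were higher in cerebellum than in hippocampus, and Tubb3 overlapped. The part of these markers in the result was not tested. In bulk tissue, fewer cells of a type and less RNA per cell cannot be told apart.

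**Figure D1:**
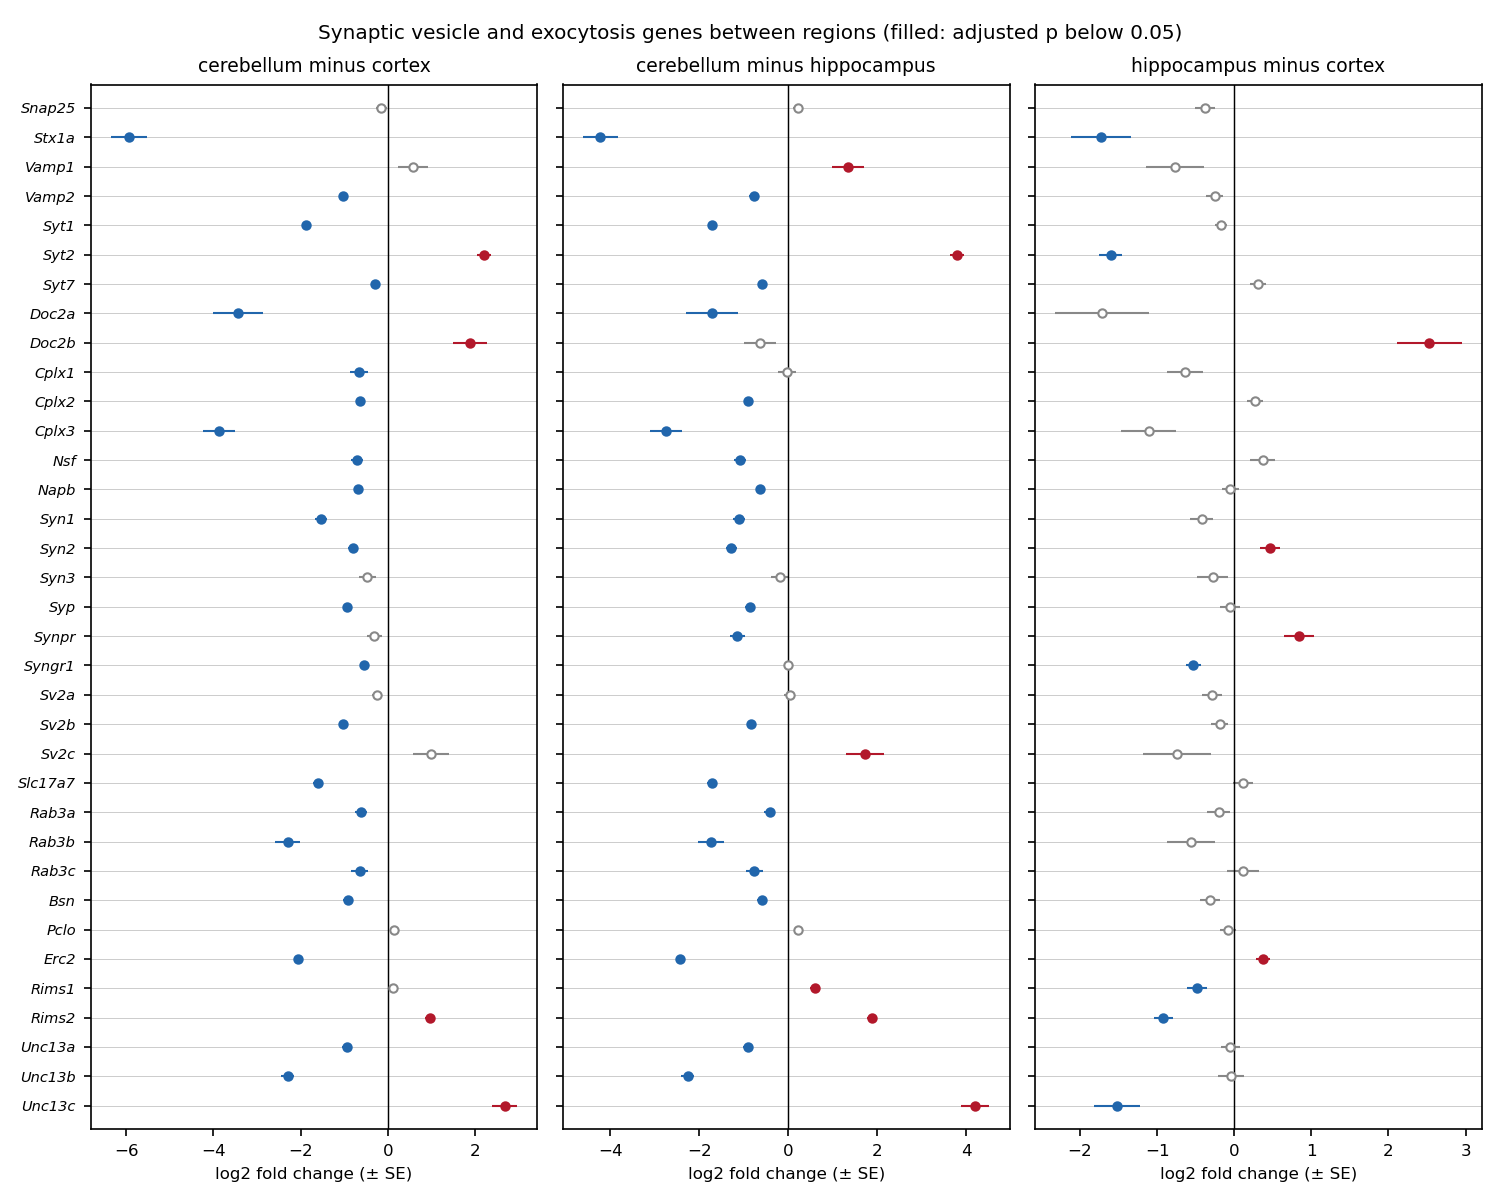
Log2 fold change (x axis, ± SE) of each of the 35 genes (rows) between regions, over both genotypes. Filled points passed an adjusted p of 0.05 (red higher, blue lower in the region named first). Unc13c and Syt2 lie farthest to the right and Stx1a farthest to the left in the cerebellar comparisons.

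Munc13 proteins prime docked vesicles for fusion. Unc13a encodes Munc13-1, Unc13b Munc13-2, and Unc13c Munc13-3, known in rodents mainly from the cerebellum. Unc13c (ENSMUSG00000062151.13, chromosome 9, 73479422 to 73968966, minus strand, GRCm38) stood at 409.7, 453 and 530.3 CPM in the cerebellum (lowest, median and highest of 6), at 23.1 and 36.0 CPM in knockout hippocampus and 19.9 and 22.8 in wild type, and at 49.7 and 164 CPM in knockout cortex and 50.1 and 47.0 in wild type. All cerebellar libraries lay above all others, and all hippocampal libraries below all cortical ones. Knockout cortex library 2 was far above the other cortical libraries. For Unc13a the cerebellar libraries gave 260.3, 302 and 329.5 CPM (lowest, median, highest), those of the hippocampus 520.4 and 531 CPM in knockout hippocampus and 622 and 536 in wild type, and those of the cortex 602 and 421 CPM in knockout cortex and 680.4 and 591 in wild type. Its cerebellar libraries were the lowest, while hippocampus and cortex overlapped. Cerebellar levels of Unc13b were 25.9, 29.1 and 36.6 CPM (lowest, median, highest), against 141 and 143 CPM in knockout hippocampus and 153 and 139.8 in wild type, and 164 and 83.0 CPM in knockout cortex and 187 and 169.8 in wild type. Cerebellum was again lowest without overlap, and knockout cortex library 2 was the lowest of the forebrain.

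Fold changes ran accordingly. Unc13c was higher in cerebellum by 2.67 ± 0.29 on the log2 scale than in cortex (SE, edgeR adjusted p = 3e-05) and by 4.20 ± 0.32 than in hippocampus (adjusted p = 1.7e-06). It was lower in hippocampus than in cortex, at -1.52 ± 0.30 (edgeR adjusted p = 0.0073). Without knockout cortex library 2, the cerebellar excess over cortex was 3.24 ± 0.16 and the hippocampal difference from cortex was -0.97 ± 0.14. Unc13a (-0.95 ± 0.11 against cortex, -0.90 ± 0.11 against hippocampus) and Unc13b (-2.30 ± 0.15 against cortex, -2.26 ± 0.15 against hippocampus) were lower in cerebellum. Neither passed between hippocampus and cortex, at -0.05 ± 0.12 for Unc13a and -0.04 ± 0.17 for Unc13b. As a share of the family's length-scaled counts, Unc13c took 67.9% ± 1.56 in cerebellum (SD, n = 6), 5.50% ± 1.65 in hippocampus (n = 4) and 15.1% ± 12.3 in cortex (n = 4). The cortical mean was 8.90% without knockout library 2, which alone had 33.6%. Unc13a took 30.3% ± 1.60 in cerebellum, 82.5% ± 1.81 in hippocampus and 74.2% ± 9.53 in cortex. Unc13c was the largest member in each of the 6 cerebellar libraries and Unc13a in each of the 8 others, with any of the 3 length scalings tried.

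**Figure D2:**
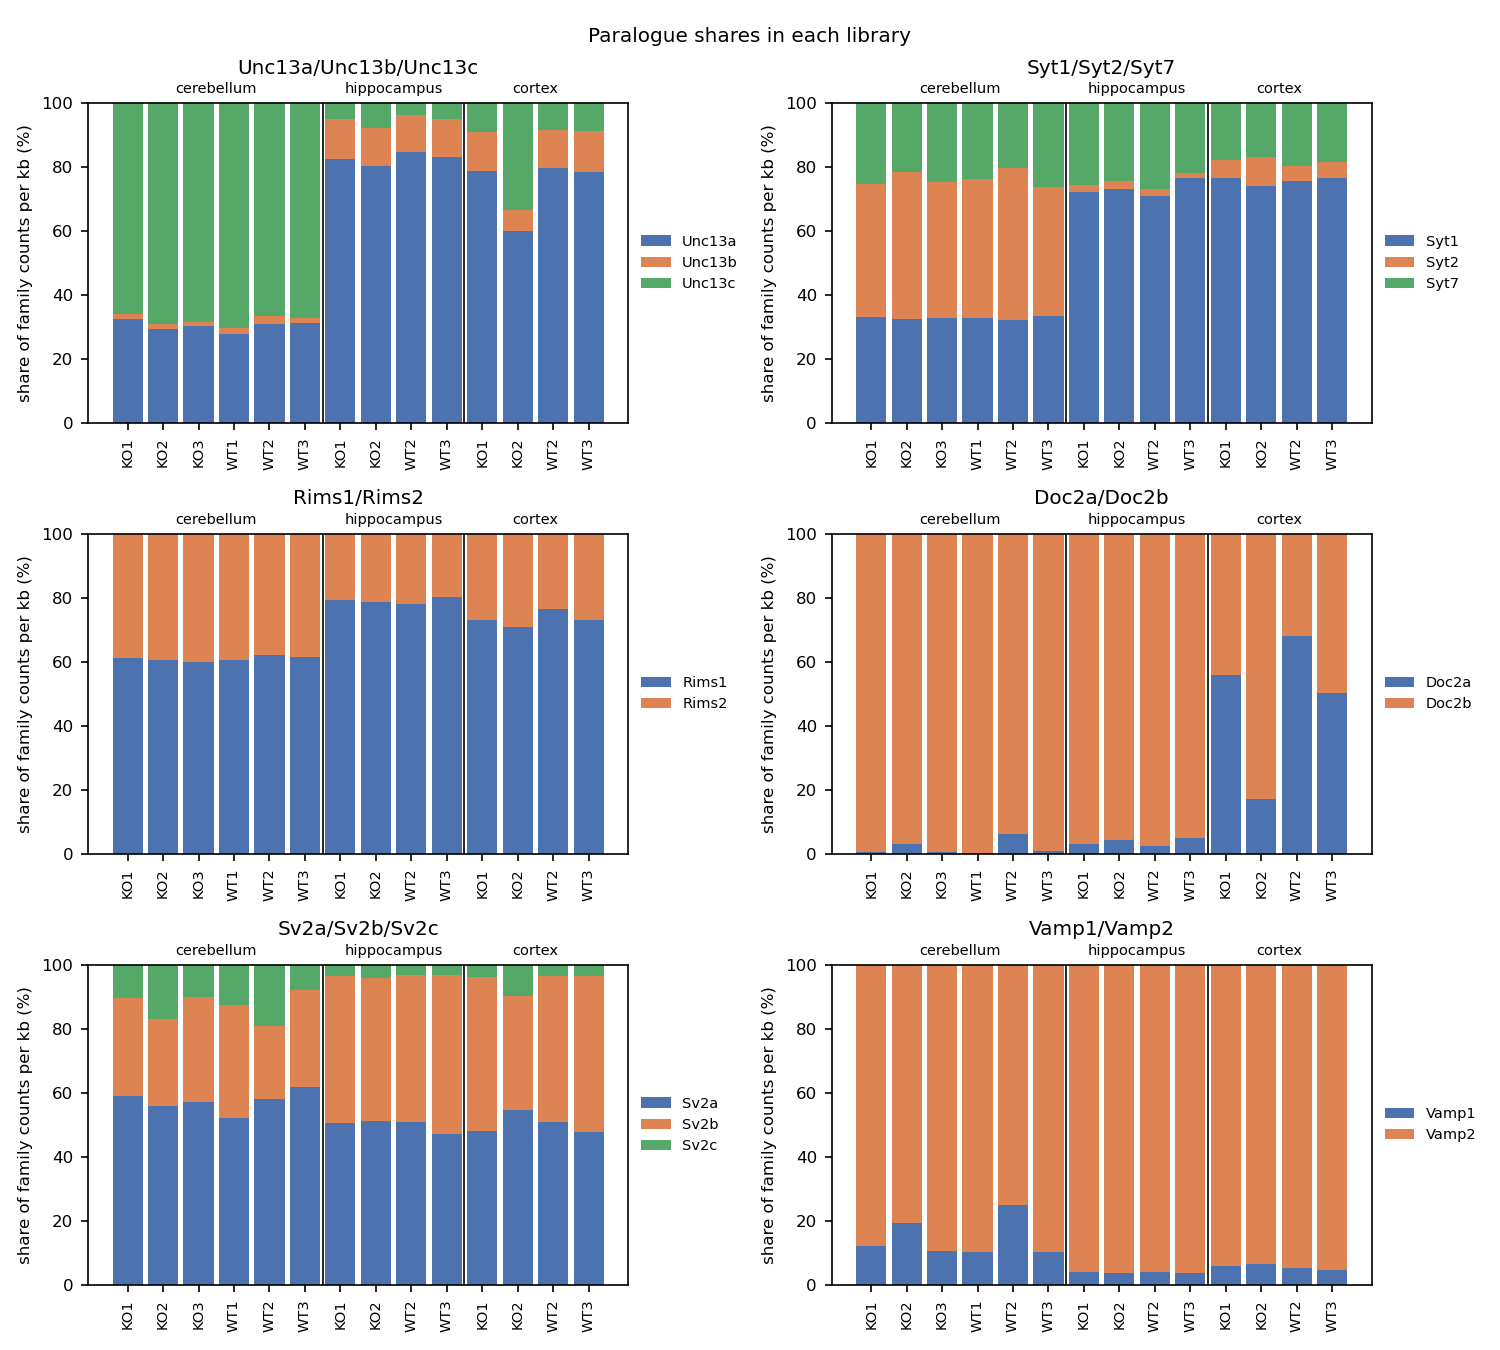
Share of each paralogue (y axis, percent of the family's counts per kb of merged exons) in each library (x axis, KO knockout, WT wild type, numbered as titled), for 6 families. Unc13c fills 66.0% to 70.3% of its family in every cerebellar library, and knockout cortex library 2 differs from the other cortical libraries in Unc13c and Doc2b.

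The balance of Unc13c with Unc13a, and that of Syt2 with Syt1 below, differed between regions. The promoter windows of these 4 genes are therefore printed from RefSeq (GRCm38.p6). Each runs from 250 bases before to 50 after the RefSeq start, 5′ to 3′ on the gene's strand. Capitals mark the letters GGGCGG or CCGCCC, the core of the GC box that Sp-family factors bind, in either direction. The windows are chr9:73968988-73969287 (minus) for Unc13c, chr8:71671708-71672007 (minus) for Unc13a, chr1:134646362-134646661 (plus) for Syt2 and chr10:109010926-109011225 (minus) for Syt1. The starts of Unc13c (73968966) and Syt2 (134646677) in the annotation used for the counts differ from those of RefSeq and lie outside these windows.
Unc13c: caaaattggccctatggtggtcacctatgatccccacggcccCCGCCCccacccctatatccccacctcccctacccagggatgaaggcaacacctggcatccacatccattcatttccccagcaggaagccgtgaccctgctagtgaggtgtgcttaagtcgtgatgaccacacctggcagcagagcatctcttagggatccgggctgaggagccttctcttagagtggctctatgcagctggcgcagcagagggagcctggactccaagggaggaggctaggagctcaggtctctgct
Unc13a: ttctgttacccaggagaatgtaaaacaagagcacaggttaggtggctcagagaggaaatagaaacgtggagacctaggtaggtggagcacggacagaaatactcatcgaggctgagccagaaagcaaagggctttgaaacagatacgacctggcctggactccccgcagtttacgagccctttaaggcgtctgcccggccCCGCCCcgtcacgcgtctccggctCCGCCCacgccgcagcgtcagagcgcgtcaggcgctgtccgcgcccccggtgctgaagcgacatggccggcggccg
Syt2: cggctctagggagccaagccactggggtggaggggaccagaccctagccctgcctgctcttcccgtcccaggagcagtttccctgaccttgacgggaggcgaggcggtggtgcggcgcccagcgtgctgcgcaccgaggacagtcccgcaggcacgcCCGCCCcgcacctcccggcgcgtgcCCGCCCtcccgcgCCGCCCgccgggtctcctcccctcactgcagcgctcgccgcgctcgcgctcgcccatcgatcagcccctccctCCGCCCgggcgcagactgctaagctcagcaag
Syt1: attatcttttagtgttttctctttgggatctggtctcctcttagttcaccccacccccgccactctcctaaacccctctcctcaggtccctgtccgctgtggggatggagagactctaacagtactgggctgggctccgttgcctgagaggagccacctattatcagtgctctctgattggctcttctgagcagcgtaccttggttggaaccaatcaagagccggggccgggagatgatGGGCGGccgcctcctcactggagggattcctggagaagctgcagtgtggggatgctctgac
The window of Unc13c held 6 CpG dinucleotides and that of Unc13a 27, while Syt2 had 34 and Syt1 had 8. Over all 28 matched genes the count ran between 6.00 and 38.0 with a median of 18.5, against a median of 7.00 over 27025 RefSeq promoters of this length. Windows of 22 of the 28 genes held GGGCGG on either strand, as did 35.9% of all promoters. The TATA box letters TATAAA occurred in those of Rab3b and Sv2b (2 of 28, 14.2% of all promoters), and the cyclic AMP response element TGACGTCA in that of Syn1 (1 of 28, 1.85% of all promoters). These are matches of letters in a window and do not show use of a site.

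Synaptotagmins 1 and 2, the calcium sensors of fast release, showed a like exchange. Syt2 (ENSMUSG00000026452.15, chromosome 1, 134646677 to 134762593, plus strand) stood at 509, 537 and 603 CPM in the cerebellum (lowest, median and highest of 6), at 43.7 and 47.9 CPM in knockout hippocampus and 37.9 and 30.6 in wild type, and at 106 and 186 CPM in knockout cortex and 98.5 and 98.5 in wild type. Cerebellar libraries were highest and hippocampal ones lowest, with no overlap among the regions. Syt1 was counted at 429, 453 and 466 CPM across the cerebellum (lowest, median, highest), 1416 and 1464 CPM in knockout hippocampus and 1378 and 1626 in wild type, and 1596 and 1654 CPM in knockout cortex and 1722 and 1662 in wild type. Here the cerebellum was lowest and the forebrain regions overlapped. For Syt7, a slower, high-affinity sensor of sustained release, the cerebellar libraries gave 253, 295 and 329.8 CPM (lowest, median, highest), those of the hippocampus 451 and 438 CPM in knockout hippocampus and 471 and 416 in wild type, and those of the cortex 333 and 340.5 CPM in knockout cortex and 407 and 359 in wild type. Its order was hippocampus, cortex and then cerebellum, without overlap.

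Syt2 was higher in cerebellum than in cortex by 2.20 ± 0.15 (log2, edgeR adjusted p = 1.5e-07) and than in hippocampus by 3.79 ± 0.16 (adjusted p = 3e-09), and lower in hippocampus than in cortex, at -1.60 ± 0.15. Syt1 was lower in cerebellum, at -1.88 ± 0.07 against cortex and -1.71 ± 0.07 against hippocampus (edgeR adjusted p = 2e-09 and 3.2e-09), and at -0.17 ± 0.08 between hippocampus and cortex it did not pass. Syt7 differed less, at -0.30 ± 0.09 for cerebellum against cortex and -0.60 ± 0.09 against hippocampus. Syt2 took 43.6% ± 2.67 of the 3-gene total per length in cerebellum, 2.19% ± 0.453 in hippocampus and 6.08% ± 2.05 in cortex. Syt1 took 32.8% ± 0.380 in cerebellum (SD, n = 6), 73.1% ± 2.48 in hippocampus (n = 4) and 75.7% ± 1.27 in cortex (n = 4). Which of the pair led in cerebellum depended on gene length: with the longest transcript in place of merged exons, Syt1 had 43.0% and Syt2 36.7%.

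Doc2 proteins are further high-affinity calcium sensors, linked to spontaneous and asynchronous release. Cerebellar levels of Doc2b were 65.4, 80.9 and 96.1 CPM (lowest, median, highest), against 127 and 105 CPM in knockout hippocampus and 149 and 133 in wild type, and 11.7 and 66.0 CPM in knockout cortex and 10.8 and 14.2 in wild type. Cortex was lowest except for knockout library 2, which reached the cerebellar range. Doc2a stood at 0.265, 0.489 and 2.83 CPM in the cerebellum (lowest, median and highest of 6), at 2.68 and 3.01 CPM in knockout hippocampus and 2.60 and 4.64 in wild type, and at 9.55 and 8.82 CPM in knockout cortex and 14.8 and 9.25 in wild type. The cortical libraries were the highest, but all values were low, and 39.4% of the merged exons of Doc2a overlap the opposite-strand gene Ino80e, whose reads cannot be told apart if strand was not used in counting. Doc2b exceeded cortex by 1.89 ± 0.39 in cerebellum and by 2.53 ± 0.42 in hippocampus (log2, edgeR adjusted p = 0.0026 and 0.0033). Without knockout cortex library 2 these were 2.77 ± 0.17 for cerebellum and 3.40 ± 0.18 for hippocampus. Doc2a was lower in cerebellum than in cortex, at -3.43 ± 0.57 (edgeR adjusted p = 0.00052), and at -1.71 ± 0.61 for hippocampus against cortex it did not pass (adjusted p = 0.1). Without the 3 libraries that stood apart, Doc2a was at -4.83 ± 0.33 for cerebellum against cortex, -3.09 ± 0.33 for cerebellum against hippocampus, where all libraries gave -1.72, and -1.74 ± 0.26 for hippocampus against cortex. The share of Doc2a was 2.00% ± 2.34 in cerebellum, 3.81% ± 1.12 in hippocampus and 47.9% ± 21.8 in cortex, with 17.2% in knockout cortex library 2 and 50.3% to 68.2% in the others.

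Among the SNARE proteins themselves the plasma membrane syntaxin Stx1a had the widest range. Stx1a (ENSMUSG00000007207.10, chromosome 5, 135023482 to 135051100) was counted at 1.50, 2.10 and 6.69 CPM across the cerebellum (lowest, median, highest), 43.2 and 53.1 CPM in knockout hippocampus and 49.4 and 74.4 in wild type, and 181 and 123 CPM in knockout cortex and 241 and 190.4 in wild type. No library of one region overlapped another region, in the order cortex, hippocampus, cerebellum. The cerebellar libraries numbered 2 had the highest of the cerebellar values. Its log2 fold change was -5.94 ± 0.41 for cerebellum against cortex, -4.22 ± 0.39 against hippocampus and -1.73 ± 0.39 for hippocampus against cortex (edgeR adjusted p = 1.5e-06, 1.1e-05 and 0.018). Without the 3 libraries that stood apart, the cerebellar differences were -6.75 ± 0.19 against cortex and -4.89 ± 0.18 against hippocampus. Snap25, the partner of syntaxin on the plasma membrane, ranged over 1791 to 1994 CPM in cerebellum, 1429 to 1786 in hippocampus and 1697 to 2449 in cortex and passed in no regional comparison with all libraries.

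Vamp2 and Vamp1 are synaptobrevins, the SNAREs carried by the vesicle. For Vamp2 the cerebellar libraries gave 431, 472 and 520.4 CPM (lowest, median, highest), those of the hippocampus 799.6 and 821 CPM in knockout hippocampus and 759.8 and 864 in wild type, and those of the cortex 851 and 1202 CPM in knockout cortex and 917 and 886 in wild type. The cerebellum was lowest without overlap. Cerebellar levels of Vamp1 were 133, 164 and 427 CPM (lowest, median, highest), against 90.9 and 88.0 CPM in knockout hippocampus and 85.9 and 89.4 in wild type, and 141 and 224 CPM in knockout cortex and 136 and 114 in wild type. The cerebellar libraries numbered 2, at 313 CPM (knockout) and 427 CPM (wild type), were well above the other 4. Vamp2 was lower in cerebellum, at -1.02 ± 0.10 against cortex and -0.78 ± 0.10 against hippocampus on the log2 scale, and Vamp1 was higher than in hippocampus by 1.34 ± 0.36 (edgeR adjusted p = 0.011). Without the 3 libraries that stood apart that excess was 0.77 ± 0.09. Vamp1 was 14.6% ± 6.14 of the pair in cerebellum, 3.93% ± 0.170 in hippocampus and 5.55% ± 0.823 in cortex. Its share was 19.3% and 25.0% in the cerebellar libraries numbered 2 and 10.2% to 12.1% in the other 4.

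Complexins bind the assembled SNAREs. Cplx1 stood at 244, 289.6 and 511 CPM in the cerebellum (lowest, median and highest of 6), at 317 and 352 CPM in knockout hippocampus and 298 and 385 in wild type, and at 507 and 688 CPM in knockout cortex and 491 and 433 in wild type. Cerebellum and cortex overlapped, and the cerebellar libraries numbered 2 were the highest of their region. Cplx2 was counted at 649, 694 and 841 CPM across the cerebellum (lowest, median, highest), 1383 and 1295 CPM in knockout hippocampus and 1371 and 1420.1 in wild type, and 1041 and 1281 CPM in knockout cortex and 1155 and 1050.4 in wild type. Hippocampus was highest, cortex next and cerebellum lowest, without overlap. For Cplx3, best known from retinal ribbon synapses, the cerebellar libraries gave 0.409, 0.663 and 0.968 CPM (lowest, median, highest), those of the hippocampus 2.54 and 6.32 CPM in knockout hippocampus and 1.93 and 6.88 in wild type, and those of the cortex 8.53 and 10.4 CPM in knockout cortex and 9.24 and 10.2 in wild type. This gene was rare everywhere and ordered cortex, hippocampus, cerebellum. All 3 passed as lower in cerebellum than in cortex, at -0.67 ± 0.21, -0.64 ± 0.09 and -3.87 ± 0.36 (log2, edgeR adjusted p = 0.02, 9.9e-05 and 2.4e-06). That of Cplx1 was lost when knockout cortex library 2 (-0.54 ± 0.24) or wild-type cortex library 2 (-0.60 ± 0.25) was left out. Cplx1 had 49.7% ± 9.29 of the length-scaled total in cerebellum, 35.6% ± 2.55 in hippocampus and 50.7% ± 3.09 in cortex, with 58.8% and 63.2% in the cerebellar libraries numbered 2. Nsf, the ATPase that takes used SNARE complexes apart, and Napb, its adaptor beta-SNAP, were lower in cerebellum. Nsf had 411 to 662 CPM in cerebellum, 1024 to 1094 in hippocampus and 729 to 1065 in cortex, and its log2 fold changes were -0.71 ± 0.14 against cortex and -1.08 ± 0.14 against hippocampus. Napb had 245 to 316 CPM in cerebellum, 402 to 453 in hippocampus and 399 to 486 in cortex, with -0.68 ± 0.10 against cortex and -0.63 ± 0.10 against hippocampus.

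**Figure D3:**
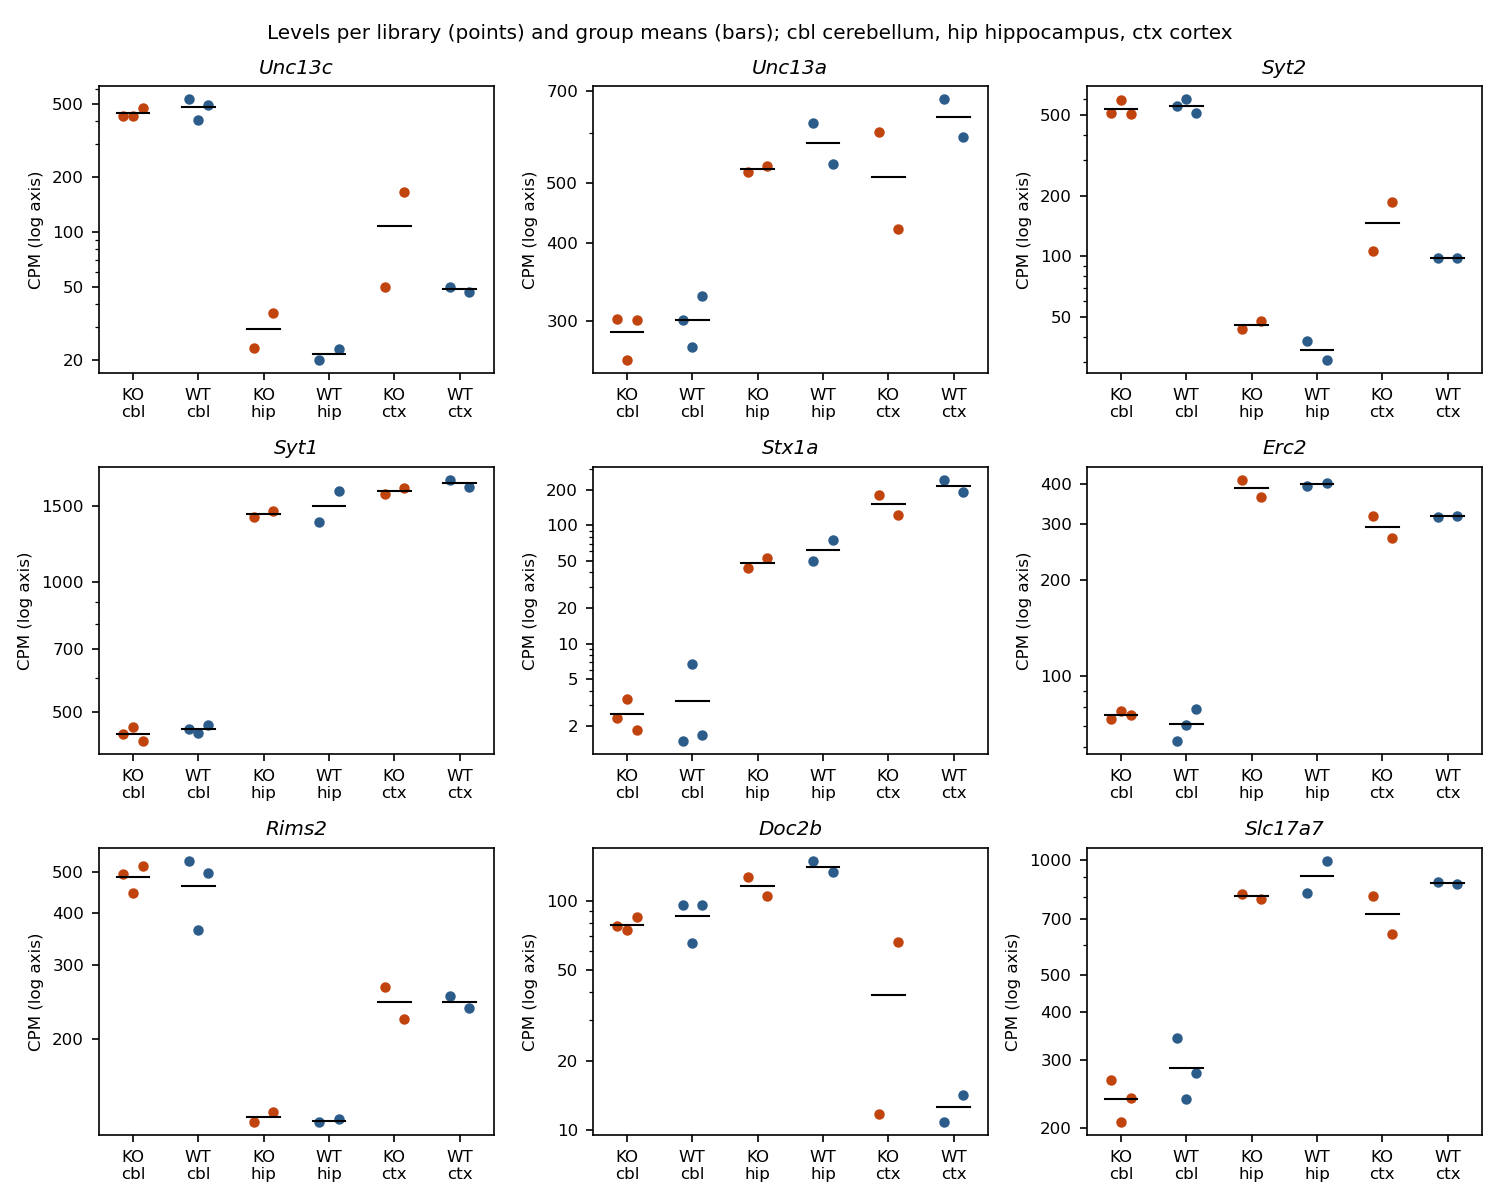
Level (y axis, CPM on a log axis) of 9 genes in each library, as points by genotype and region (KO left of WT), with bars at group means. Unc13c, Syt2 and Rims2 are highest in cerebellum, and Unc13a, Syt1, Stx1a, Erc2 and Slc17a7 are lowest there.

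At the active zone the scaffolds divided. RIM proteins tie vesicles, through Rab3, to calcium channels. Cerebellar levels of Rims2 were 365, 497 and 532 CPM (lowest, median, highest), against 127 and 134 CPM in knockout hippocampus and 127 and 129 in wild type, and 267 and 224 CPM in knockout cortex and 253 and 237 in wild type. Cerebellum was highest and hippocampus lowest, with no overlap. Rims1 stood at 422, 552 and 579 CPM in the cerebellum (lowest, median and highest of 6), at 347 and 350.0 CPM in knockout hippocampus and 319 and 367 in wild type, and at 516 and 389 CPM in knockout cortex and 579.6 and 453 in wild type. Hippocampus was lowest, and cerebellum overlapped cortex. Rims2 was higher in cerebellum than in cortex by 0.96 ± 0.11 and than in hippocampus by 1.88 ± 0.11, and lower in hippocampus than in cortex, at -0.92 ± 0.12 (log2, edgeR adjusted p = 1.4e-05, 5e-08 and 0.00022). Rims1 passed against hippocampus (0.60 ± 0.12) and not against cortex (0.12 ± 0.12). Rims2 held 39.1% ± 0.739 of the pair in cerebellum, 21.0% ± 0.917 in hippocampus and 26.6% ± 2.22 in cortex. With the longest transcript as the length, the cerebellar share was 54.8%.

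Erc2, the active zone protein also called CAST, was among the genes lowest in cerebellum. Erc2 was counted at 62.6, 74.6 and 79.0 CPM across the cerebellum (lowest, median, highest), 413 and 365 CPM in knockout hippocampus and 396 and 405 in wild type, and 318 and 271 CPM in knockout cortex and 317 and 319.6 in wild type. The libraries fell into 3 separate ranges, cerebellum lowest and hippocampus highest. Its log2 fold change was -2.07 ± 0.08 for cerebellum against cortex and -2.43 ± 0.08 against hippocampus (edgeR adjusted p = 2.5e-09 and 6.4e-10), and 0.37 ± 0.09 for hippocampus against cortex. Bassoon and Piccolo are the giant scaffolds of the zone. For Bsn the cerebellar libraries gave 673, 843 and 978 CPM (lowest, median, highest), those of the hippocampus 1241 and 1231 CPM in knockout hippocampus and 1141 and 1447 in wild type, and those of the cortex 1670.1 and 1469 CPM in knockout cortex and 1559 and 1602 in wild type. Bassoon was lowest in cerebellum and highest in cortex, without overlap. Cerebellar levels of Pclo were 1109, 1199.7 and 1365 CPM (lowest, median, highest), against 1024 and 1023 CPM in knockout hippocampus and 988 and 1159 in wild type, and 1096 and 1205 CPM in knockout cortex and 1105 and 1032 in wild type. Piccolo overlapped in all comparisons and passed in none with all libraries, while Bsn was lower in cerebellum, at -0.91 ± 0.11 against cortex and -0.59 ± 0.12 against hippocampus on the log2 scale. The share of Pclo in the pair was 50.8% ± 3.21 in cerebellum, 37.1% ± 0.756 in hippocampus and 33.4% ± 2.47 in cortex.

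Rab3 GTPases sit on vesicles and bind RIM. Rab3a stood at 164, 185 and 252 CPM in the cerebellum (lowest, median and highest of 6), at 239.7 and 263 CPM in knockout hippocampus and 247 and 282 in wild type, and at 259 and 403 CPM in knockout cortex and 285 and 243 in wild type. The regions overlapped. Rab3b was counted at 4.68, 7.44 and 12.7 CPM across the cerebellum (lowest, median, highest), 22.8 and 27.9 CPM in knockout hippocampus and 30.5 and 33.0 in wild type, and 33.0 and 67.6 CPM in knockout cortex and 34.2 and 35.4 in wild type. Cerebellum was lowest for Rab3b without overlap, although the cerebellar libraries numbered 2 were its highest there. For Rab3c the cerebellar libraries gave 220.4, 228 and 358 CPM (lowest, median, highest), those of the hippocampus 407 and 442 CPM in knockout hippocampus and 473 and 427 in wild type, and those of the cortex 318 and 649 CPM in knockout cortex and 326 and 348 in wild type. Cerebellum lay below hippocampus and overlapped cortex. Against cortex the log2 fold changes in cerebellum were -0.62 ± 0.13 for Rab3a, -2.30 ± 0.29 for Rab3b and -0.65 ± 0.19 for Rab3c (edgeR adjusted p = 0.0021, 6.8e-05 and 0.014). The call of Rab3c was lost without knockout cortex library 2, at -0.34 ± 0.16. Rab3a remained the largest member in every library, at 69.9% to 81.1% of the total scaled by merged exons. With no length scaling Rab3c was the largest in every library, at 50.6% to 63.0%.

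Synapsins tether vesicles in the reserve pool. Cerebellar levels of Syn1 were 164, 187 and 293 CPM (lowest, median, highest), against 398 and 415 CPM in knockout hippocampus and 446 and 509.8 in wild type, and 577 and 694 CPM in knockout cortex and 562 and 530.1 in wild type. Levels were ordered cortex, hippocampus, cerebellum without overlap. Syn2 stood at 189, 201 and 218 CPM in the cerebellum (lowest, median and highest of 6), at 463 and 474 CPM in knockout hippocampus and 439.9 and 591 in wild type, and at 286 and 446 CPM in knockout cortex and 332 and 351 in wild type. For Syn2 the cerebellum was lowest and the forebrain regions overlapped. For Syn3 the cerebellar libraries gave 32.4, 35.3 and 42.5 CPM (lowest, median, highest), those of the hippocampus 38.3 and 35.9 CPM in knockout hippocampus and 62.4 and 33.6 in wild type, and those of the cortex 56.0 and 48.1 CPM in knockout cortex and 64.5 and 36.1 in wild type. Syn3 overlapped between regions and passed in no comparison, and 14.1% of its merged exons overlap the opposite-strand Timp3. Syn1 was lower in cerebellum, at -1.53 ± 0.14 against cortex and -1.11 ± 0.14 against hippocampus (log2), and so was Syn2, at -0.80 ± 0.12 and -1.28 ± 0.12 in those comparisons. Between the forebrain regions Syn2 was higher in hippocampus, at 0.47 ± 0.13 (edgeR adjusted p = 0.035). Its share of the family was 31.2% ± 3.71 in cerebellum, 33.7% ± 1.91 in hippocampus and 21.5% ± 2.22 in cortex.

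Synaptophysin, synaptoporin and synaptogyrin are membrane proteins of the vesicle that cross it repeatedly. Syp was counted at 222, 247 and 339 CPM across the cerebellum (lowest, median, highest), 418 and 481 CPM in knockout hippocampus and 482 and 511 in wild type, and 439.9 and 606 CPM in knockout cortex and 507 and 422 in wild type. The cerebellum was lowest, and 16.8% of the merged exons of Syp overlap the antisense transcript Gm14703. For Synpr the cerebellar libraries gave 26.0, 35.3 and 39.2 CPM (lowest, median, highest), those of the hippocampus 84.4 and 64.8 CPM in knockout hippocampus and 76.3 and 72.2 in wild type, and those of the cortex 41.5 and 53.4 CPM in knockout cortex and 26.8 and 46.2 in wild type. Hippocampus, where synaptoporin is known from mossy fibres, was highest without overlap. Synpr was higher in hippocampus than in cortex by 0.84 ± 0.19 and lower in cerebellum than in hippocampus, at -1.15 ± 0.17 (log2, edgeR adjusted p = 0.01 and 0.00011). Syp was lower in cerebellum, at -0.93 ± 0.11 against cortex and -0.87 ± 0.11 against hippocampus. Synpr was a small part of the pair everywhere, at 6.83% ± 1.61 in cerebellum, 8.06% ± 1.40 in hippocampus and 4.53% ± 1.22 in cortex. Syngr1 had 309 to 356 CPM in cerebellum, 298 to 394 in hippocampus and 426 to 532 in cortex, and was lower than cortex in cerebellum (-0.54 ± 0.09) and in hippocampus (-0.53 ± 0.10).

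SV2 proteins are vesicle glycoproteins with the fold of a transporter. Cerebellar levels of Sv2c were 81.8, 131 and 275 CPM (lowest, median, highest), against 44.4 and 53.9 CPM in knockout hippocampus and 41.5 and 47.7 in wild type, and 54.0 and 180.0 CPM in knockout cortex and 53.9 and 50.8 in wild type. The cerebellar libraries numbered 2 and knockout cortex library 2 were the highest of their regions. Sv2b stood at 266, 286 and 367 CPM in the cerebellum (lowest, median and highest of 6), at 482 and 513 CPM in knockout hippocampus and 498 and 613 in wild type, and at 617 and 573 CPM in knockout cortex and 590.4 and 621 in wild type. Sv2b was lowest in cerebellum without overlap. Sv2a was counted at 284, 301 and 396 CPM across the cerebellum (lowest, median, highest), 293 and 326 CPM in knockout hippocampus and 305 and 322 in wild type, and 339.5 and 487 CPM in knockout cortex and 367 and 335 in wild type. It overlapped except that hippocampus lay below cortex. Sv2c was higher in cerebellum than in hippocampus, by 1.72 ± 0.42 (log2, edgeR adjusted p = 0.0073; 1.26 without the 3 libraries that stood apart), and Sv2b was lower in cerebellum than in hippocampus (-0.83 ± 0.10) and cortex (-1.02 ± 0.10). Against cortex Sv2c did not pass with all libraries, at 0.98 ± 0.41, and did without knockout cortex library 2, at 1.55 ± 0.42. Sv2c made up 12.9% ± 4.34 of the family in cerebellum, 3.59% ± 0.350 in hippocampus and 5.09% ± 3.05 in cortex, and 3.56% in cortex without that library.

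Slc17a7 encodes VGLUT1, which loads vesicles with glutamate. For Slc17a7 the cerebellar libraries gave 207, 253 and 342 CPM (lowest, median, highest), those of the hippocampus 812 and 792 CPM in knockout hippocampus and 818 and 992 in wild type, and those of the cortex 802 and 639.6 CPM in knockout cortex and 874 and 862 in wild type. The cerebellar libraries were lowest, and those of the forebrain overlapped. Its log2 fold change was -1.60 ± 0.12 for cerebellum against cortex and -1.71 ± 0.12 against hippocampus (edgeR adjusted p = 2.7e-07 and 1.3e-07), and 0.11 ± 0.13 for hippocampus against cortex.

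Across the 11 families with paralogues in the list, the largest member differed between regions in 4 with merged exon lengths, in 6 with the longest transcript and in 5 with no length scaling. The Munc13 family and the pair of Bassoon and Piccolo did so with all 3. With merged exons the largest member was not the same in every cerebellar library for the complexins and for Bassoon and Piccolo, nor in every cortical library for the complexins, SV2 and Doc2 families, nor in every hippocampal library for SV2. Without knockout cortex library 2, Doc2a led in cortex with a mean of 58.2% against 41.8% for Doc2b, which adds that pair. Shares of at least 1 member did not overlap between cerebellum and cortex in 10 families, between hippocampus and cortex in 9, and between cerebellum and hippocampus in 9. This rule is easily met: between genotypes, with fewer libraries per group, it was met by 2 families in cerebellum, 4 in hippocampus and 5 in cortex. No rate over other gene families was computed. By level, 3 genes lay higher and 20 lower in every cerebellar than in every cortical library, where 34.2% of all genes did either. For cerebellum against hippocampus these counts were 7 and 21 (42.5% of all genes), and for hippocampus against cortex 5 and 13 (18.8% of all genes).

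How far the regional calls rest on single libraries differed between comparisons. With the 3 libraries that stood apart left out, a choice made after seeing the data, the 27 and 28 genes called for cerebellum against cortex and against hippocampus were all called again. Pclo (0.22 ± 0.08), Sv2a (-0.22 ± 0.07) and Sv2c (1.08 ± 0.20) were added against cortex, and Cplx1 (-0.34 ± 0.10), Doc2b (-0.54 ± 0.09) and Pclo (0.26 ± 0.07) against hippocampus (log2, 51.8% and 57.3% of all genes called). For hippocampus against cortex the 10 genes were called again and 10 more were added, 20 in all, where 21.2% of all genes were called. Those added as higher in hippocampus were Nsf (0.52 ± 0.07), Rab3c (0.42 ± 0.07), Cplx2 (0.35 ± 0.07) and Syt7 (0.31 ± 0.08). Those added as lower were Doc2a (-1.74 ± 0.26), Vamp1 (-0.58 ± 0.09), Cplx1 (-0.52 ± 0.11), Snap25 (-0.47 ± 0.12), Bsn (-0.36 ± 0.09) and Syn1 (-0.35 ± 0.08). Without knockout cortex library 2 alone, Snap25 (-0.48 ± 0.12) and Cplx2 (0.35 ± 0.10) were called too. Several calls were lost when 1 library was left out. Between hippocampus and cortex, Rims1 was lost without any 1 of the hippocampal libraries, knockout cortex library 1 or wild-type cortex library 2 (-0.54 to -0.37, edgeR adjusted p = 0.051 to 0.12). Syn2 was lost without any 1 of wild-type hippocampus library 3, the knockout hippocampal libraries, the wild-type cortical ones and knockout cortex library 1 (0.33 to 0.49, edgeR adjusted p = 0.053 to 0.15). Erc2 was lost without any 1 of the wild-type libraries of either region or knockout hippocampus library 1 (0.32 to 0.37, edgeR adjusted p = 0.055 to 0.11). Stx1a was lost without either knockout hippocampal library, wild-type hippocampus library 2 or wild-type cortex library 2 (-1.81 to -1.60, edgeR adjusted p = 0.058 to 0.091), and Synpr without knockout hippocampus library 1 (0.73, edgeR adjusted p = 0.053). Of the 10 calls between hippocampus and cortex, those for Rims2 and Syt2 held in all alternatives fitted. For cerebellum the losses were Doc2a and Rab3a in the comparison with hippocampus and Cplx1, Rab3c and Syt7 in that with cortex. Doc2a was lost without any 1 of knockout cerebellum libraries 1 and 3, wild-type cerebellum library 3, the knockout hippocampal libraries and wild-type hippocampus library 3 (-1.75 to -1.47, edgeR adjusted p = 0.06 to 0.11). Rab3a was lost without knockout hippocampus library 2 or wild-type hippocampus library 3 (-0.38 and -0.36), and Syt7 without wild-type cortex library 2 (-0.23 ± 0.10). Cplx3, lower in cerebellum than in hippocampus at -2.75, was at -2.14 ± 0.30 without wild-type hippocampus library 3.

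The wider pathway, 63 further genes of release and recycling of which 62 passed the filter, split in the same comparisons. Against cortex 11 were higher (23.0% of all genes) and 30 lower (25.3%) in cerebellum, against hippocampus 15 higher (22.6%) and 29 lower (24.7%). Hippocampus was higher than cortex in 4 (5.49% of all genes) and lower in 9 (6.48%). At the active zone, cerebellum was higher than cortex in the liprins Ppfia4 (2.07 ± 0.14) and Ppfia1 (1.25 ± 0.10) and in Erc1, the paralogue of Erc2 (1.45 ± 0.13), on the log2 scale. Lower were Rimbp2, which links RIM to calcium channels (-3.66 ± 0.35), Ppfia3 (-1.07 ± 0.07) and Rims3, a short RIM (-0.64 ± 0.13). Rims3 was higher in cerebellum than in hippocampus, at 2.16 ± 0.14, and lower in hippocampus than in cortex, at -2.80 ± 0.15.

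Among regulators of SNAREs, Cadps2, a priming factor of dense-core vesicles (1.49 ± 0.15), Unc13d, or Munc13-4 (2.25 ± 0.26), and the tomosyn Stxbp5l (0.71 ± 0.15) were higher in cerebellum than in cortex. Stxbp6, also called amisyn (-2.74 ± 0.43), Snap47 (-0.89 ± 0.14) and Cadps (-0.73 ± 0.13) were lower. Of the other synaptotagmins and C2 proteins, Syt9 (2.18 ± 0.41), Syt12 (1.32 ± 0.12) and Doc2g (0.94 ± 0.20) were higher and Syt5 (-4.18 ± 0.47), Syt17 (-3.34 ± 0.25) and Syt13 (-1.11 ± 0.07) lower in cerebellum than in cortex. Syt6 was lower in hippocampus than in cortex, at -1.70 ± 0.35, as was Rph3a, the Rab3 effector rabphilin (-0.47 ± 0.12).

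Of 13 further vesicle membrane proteins, 0 passed as higher (23.0% of all genes) and 8 as lower (25.3%) in cerebellum than in cortex. Rab27b (-1.80 ± 0.36), Syngr3 (-1.36 ± 0.16) and Svop (-0.77 ± 0.07) were the most lowered against cortex, on the log2 scale. Among vesicular transporters, Slc17a8, or VGLUT3 (-2.36 ± 0.73), and Slc6a17 (-0.76 ± 0.09) were lower than in cortex, and Slc32a1, which loads GABA and glycine, was higher in cerebellum than in hippocampus (1.17 ± 0.20). In vesicle endocytosis, endophilin Sh3gl2 (0.51 ± 0.09) and dynamin Dnm3 (0.46 ± 0.11) were higher than in cortex. The phosphatase synaptojanin Synj1 (-0.81 ± 0.11), Dnm1 (-0.38 ± 0.08) and the clathrin adaptor Snap91 (-0.25 ± 0.07) were lower. These calls used the same fit and adjustment over all genes.

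Against hippocampus, on the log2 scale, at the active zone Rims3, Ppfia4 (1.30 ± 0.14) and Erc1 (1.22 ± 0.13) were higher in cerebellum and Rimbp2 (-3.73 ± 0.35), Ppfia2 (-1.31 ± 0.10) and Ppfia3 (-0.85 ± 0.07) lower. Unc13d (1.86 ± 0.26) and Cadps2 (1.61 ± 0.15) were higher, and Stxbp6 (-2.95 ± 0.44), Cadps (-0.68 ± 0.13) and Stxbp5 (-0.67 ± 0.07) lower. Syt9 (3.64 ± 0.45), Syt6 (1.48 ± 0.33) and Syt12 (1.46 ± 0.12) were higher, and Syt17 (-3.76 ± 0.25), Syt5 (-3.70 ± 0.46) and Syt13 (-0.91 ± 0.07) lower. Vesicle proteins and transporters that were lower were Slc17a8 (-3.46 ± 0.73), Rab27b (-2.20 ± 0.36), Syngr3 (-1.31 ± 0.17), Svop (-0.68 ± 0.07) and Slc6a17 (-0.25 ± 0.09). In endocytosis Dnm3 (1.20 ± 0.12) and Sh3gl2 (0.53 ± 0.09) were higher, and Synj1 (-1.08 ± 0.11), Bin1 (-0.43 ± 0.09) and Amph (-0.39 ± 0.07) lower.

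Hippocampus was higher than cortex in Ppfia2 (0.99 ± 0.11), Ppfia4 (0.77 ± 0.15), Stxbp5l (0.58 ± 0.17) and amphiphysin Amph (0.26 ± 0.08). The genes lower in hippocampus included, beside Rims3, Syt6 and Rph3a given above, Rims4 (-1.18 ± 0.13), Slc32a1 (-0.73 ± 0.21), Slc6a17 (-0.51 ± 0.10) and Dnm3 (-0.75 ± 0.12).

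Some of these values rest on the libraries that stood apart. Without those 3, the differences of cerebellum from cortex were 3.19 ± 0.13 for Syt9, -3.58 ± 0.17 for Stxbp6, -4.80 ± 0.15 for Syt5, -4.33 ± 0.09 for Rimbp2, -2.40 ± 0.13 for Rab27b and -3.97 ± 0.36 for Slc17a8 (log2). Those from hippocampus were -3.73 ± 0.17 for Stxbp6, -4.52 ± 0.15 for Syt5, -2.83 ± 0.13 for Rab27b and -5.47 ± 0.32 for Slc17a8. Syt9 had 38.2 CPM in knockout cortex library 2 and 5.56 to 8.62 in the other cortical libraries, and Slc17a8 had 0.646 and 2.73 CPM in the cerebellar libraries numbered 2 (knockout and wild type) and 0.0453 to 0.221 in the other 4. The call of Slc17a8 against cortex was lost without knockout cerebellum library 1, knockout cortex library 2 or wild-type cortex library 2 (-2.33 to -1.93, edgeR adjusted p = 0.05 to 0.089). Between hippocampus and cortex, leaving out any 1 of 7 of the 8 libraries ended the call of Amph (0.21 to 0.29), and any 1 of 6 those of Stxbp5l (0.43 to 0.63), Slc32a1 (-0.74 to -0.38) and Rph3a (-0.50 to -0.37). The call of Slc6a17 against hippocampus was lost without any 1 of 7 of the 10 libraries (-0.27 to -0.20).

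Between genotypes, none of the 35 genes passed in any region. The fit called 0 of them in the cerebellum, hippocampus and cortex, where 0% of all genes were called in each. At an unadjusted p under 0.05 there were 0 of 35 in cerebellum (3.18% of all genes), 0 in hippocampus (1.91% of all genes) and 4 in cortex (7.39% of all genes). DESeq2 and limma-voom called 0 of the 35 as well. None of the 62 further pathway genes passed either. Log2 fold changes of knockout minus wild type ran between -0.80 and 0.51 in cerebellum, between -0.37 and 0.47 in hippocampus and between -0.53 and 1.64 in cortex, and their medians were -0.0769, -0.0609 and 0.0953, with -0.0113, -0.00149 and 0.0194 over all genes.

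**Figure D4:**
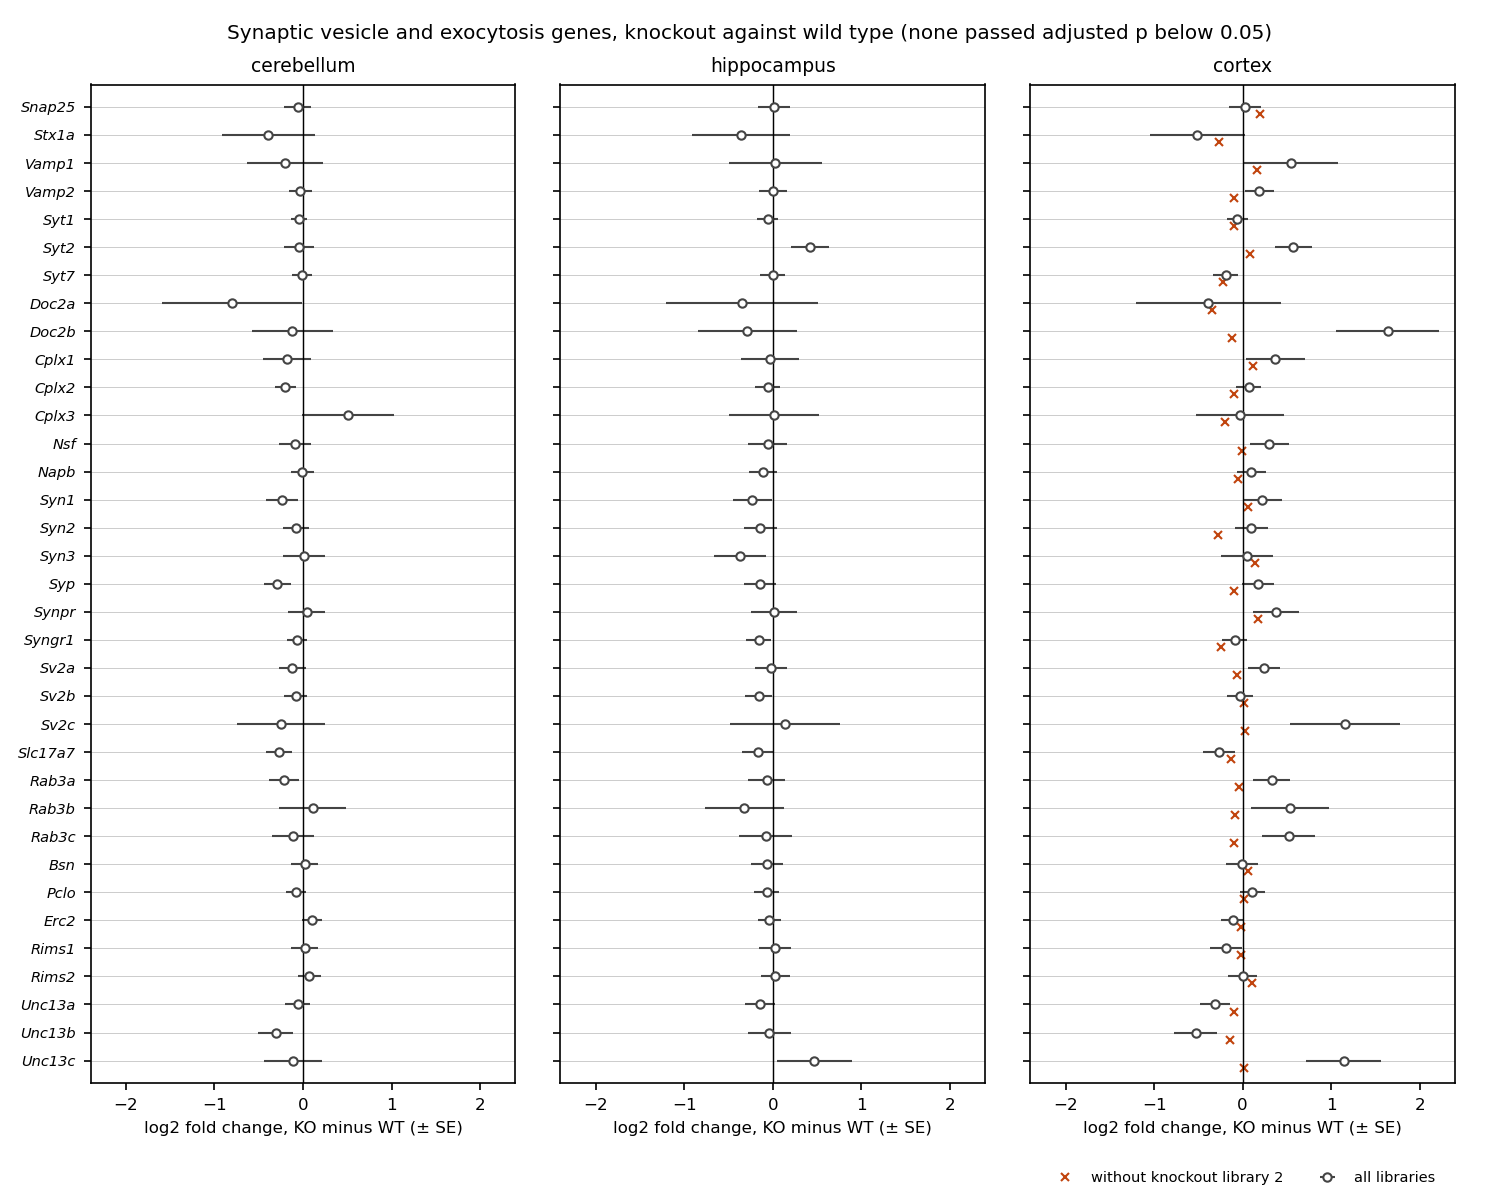
Log2 fold change of knockout minus wild type (x axis, ± SE) for each of the 35 genes (rows) in the 3 regions. Crosses in the cortex panel leave out knockout library 2. None passed, and the largest cortical value, 1.64 for Doc2b, is -0.12 without that library.

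In the cerebellum the smallest p-values belonged to Syp, Slc17a7 and Cplx2. Syp had 234, 245 and 222 CPM in knockout libraries 1 to 3 and 249, 339 and 267 CPM in wild type. It was the only one of the 35 genes whose knockout libraries all lay below those of wild type, and none lay wholly above, where 9.30% of all genes lay wholly below or above. Slc17a7 had 267, 207 and 239 CPM in knockout mice and 342, 238 and 278 CPM in wild type, and Cplx2 667, 649 and 718 against 841, 669 and 825. The genotypes overlapped for both. Their log2 fold changes were -0.29 ± 0.15, -0.27 ± 0.15 and -0.20 ± 0.12 (edgeR adjusted p = 1 for each). When cerebellar libraries were paired by number, an assumption that leaves 2 residual degrees of freedom, 0 of the 35 passed and 0.421% of all genes did. Unadjusted p-values were then under 0.05 for 6 genes, all lower in the knockout (9.36% of all genes): Slc17a7 (-0.26 ± 0.08), Syp (-0.28 ± 0.09), Unc13b (-0.30 ± 0.10), Syn1 (-0.22 ± 0.08), Rab3a (-0.21 ± 0.08) and Cplx2 (-0.20 ± 0.09).

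In the hippocampus Syt2 had 43.7 and 47.9 CPM in knockout and 37.9 and 30.6 in wild type, a log2 fold change of 0.42 ± 0.21 (edgeR adjusted p = 1). The knockout libraries were the higher ones. Cerebellar granule cell markers summed to 335 and 341 CPM in these knockout libraries and 314 and 249 in wild type. Gabra6 of that list had 7.49 and 4.62 CPM in knockout and 8.47 and 0 in wild type. The part of these markers in Syt2 was not tested. Syn3 had 38.3 and 35.9 CPM in knockout and 62.4 and 33.6 in wild type (-0.37 ± 0.29), which overlapped, and Syngr1 298 and 337 against 319 and 394 (-0.16 ± 0.14). The fold change of Syn3 was 0.14 without wild-type hippocampus library 2, the one with 1130.0 CPM of choroid plexus markers, whose part was not tested. In this region 2 genes lay higher and 8 lower in both knockout libraries than in both wild-type libraries, where 36.6% of all genes did either.

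In the cortex the genes with the smallest p-values were those in which knockout library 2 stood out. Doc2b had 11.7 and 66.0 CPM in knockout libraries 1 and 2, against 10.8 and 14.2 in wild type. Unc13c had 49.7 and 164 CPM in knockout mice and 50.1 and 47.0 in wild type, and Syt2 106 and 186 against 98.5 in each wild-type library. Knockout library 1 lay between the wild-type libraries for Doc2b and Unc13c and above both for Syt2. The log2 fold changes were 1.64 ± 0.58, 1.14 ± 0.42 and 0.57 ± 0.21 (edgeR adjusted p = 0.67 for each). Without knockout library 2 they were -0.12 ± 0.24, 0.02 ± 0.22 and 0.08 ± 0.16. Unc13b moved likewise, with -0.53 ± 0.24 and -0.14 ± 0.16. By level 6 genes lay higher and 5 lower in both knockout libraries than in both wild-type libraries, where 27.3% of all genes did either.

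With knockout cortex library 2 as the only knockout cortex (library 1 left out) 6 of the 35 genes passed, where 11.7% of all genes did. Doc2b (2.37 ± 0.22), Unc13c (1.73 ± 0.21), Rab3c (0.92 ± 0.25) and Syt2 (0.89 ± 0.16) were higher and Unc13b (-1.13 ± 0.17) and Unc13a (-0.62 ± 0.16) lower on the log2 scale, the lone library being assumed to vary like the other groups. In that library 20 of the 35 genes were the highest of the cortical libraries and 10 the lowest, against 37.0% and 37.5% of all genes. Sv2c had 180.0 CPM there and 50.8 to 54.0 in the other cortical libraries, Rab3c 649 against 318 to 348, and Rab3b 67.6 against 33.0 to 35.4. All 8 striatal and all 6 thalamic markers were highest in it too. General neuronal markers summed to 4302 CPM there against 3246 to 3516, though Rbfox3 of that list was lowest (241 against 266 to 320.3). Sums for GABAergic interneurons (941 against 528 to 584), hippocampal excitatory neurons (1001 against 595 to 723) and granule cells (427 against 250.1 to 276) were highest too. So were those of astrocytes and microglia, while those of Purkinje cells and meningeal fibroblasts lay within the range of the others. Thalamic markers summed to 346 CPM against 39.2 to 41.6, choroid plexus markers to 583 against 13.0 to 32.3, oligodendrocyte markers to 5705 against 1773 to 3636, and cortical excitatory markers to 732 against 1132 to 1165. The part of these cells in the levels of the 35 genes was not tested, and without the library the genotype differences of Doc2b, Unc13c, Syt2 and Unc13b lay between -0.14 and 0.08.

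**Figure D5:**
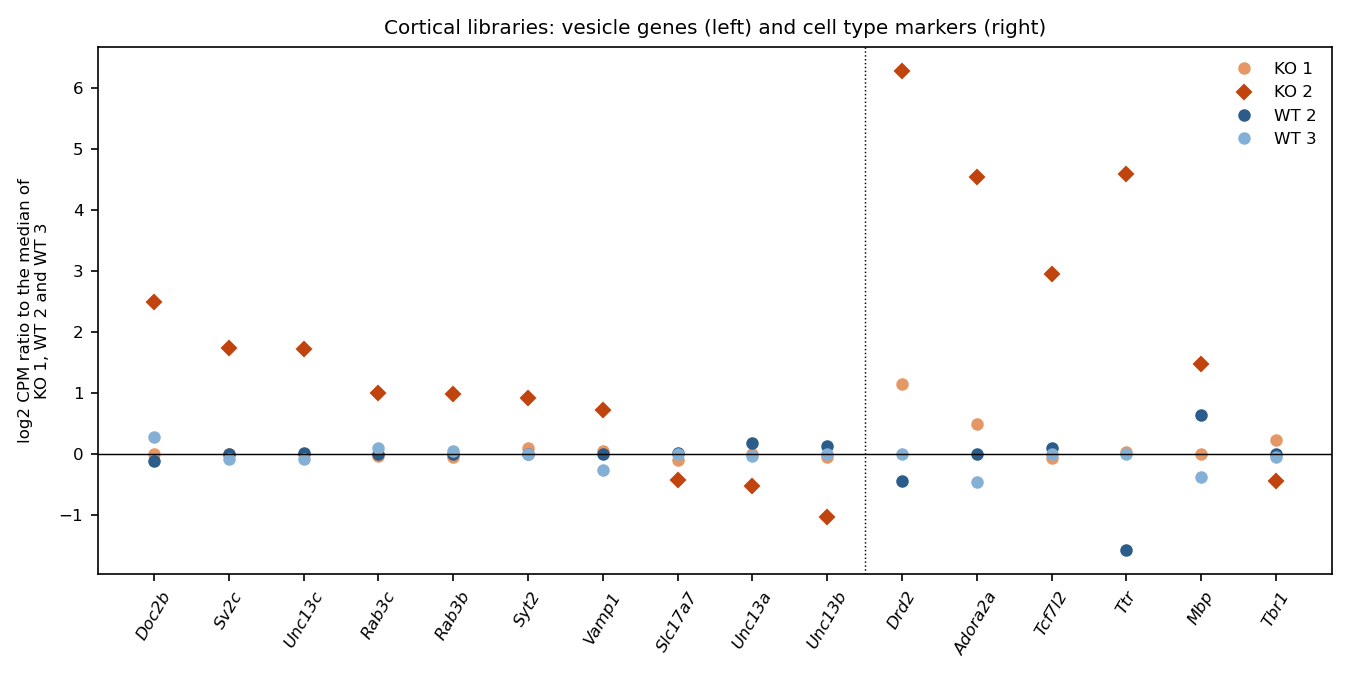
Log2 ratio (y axis) of the level in each cortical library to the median of knockout 1, wild type 2 and wild type 3, for 10 of the genes (left) and 6 cell type markers (right). Knockout library 2 (diamonds) lies above the others in Doc2b, Sv2c, Unc13c, Rab3c, Rab3b, Syt2 and Vamp1 and in markers of striatum (Drd2, Adora2a), thalamus (Tcf7l2), choroid plexus (Ttr) and oligodendrocytes (Mbp), and below them in Unc13b and the cortical marker Tbr1.

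The cerebellar libraries numbered 2 departed in both genotypes. In the pair, 14 of the 35 genes were higher and 9 lower than in all of the other 4 cerebellar libraries, against 18.7% and 18.1% of all genes. The widest ratios of means were those of Doc2a (5.75), Stx1a (2.73), Vamp1 (2.45), Sv2c (2.15) and Rab3b (1.96). Synpr (0.730), Bsn (0.787), Doc2b (0.790), Slc17a7 (0.790) and Rims2 (0.794) were lower in them. Oligodendrocyte markers, given above, and the sum of the general neuronal markers (2401 and 2809 CPM against 1880.5 to 2063) were higher in them, though Rbfox3 of that list was lower (278 and 301 CPM against 323 to 420.4), and the sum of granule cell markers was lower (4731 and 4398 CPM against 5703 to 7311). Among further vesicular transporters, Slc17a6 had 60.7 CPM (knockout) and 115 CPM (wild type) in them, against 7.94 to 13.5 in the other 4. Slc18a3 had 4.74 and 6.04 CPM in them and 0 in the others. Slc17a8, given above, and Slc32a1 were higher in them too, while Slc18a1, Slc18a2 and Slc6a17 overlapped. The part of these markers and transporters was not tested.

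Whether the genotype effect differed between regions was asked by the interaction terms, and none of the 35 genes passed, with 0% of all genes called in each (edgeR). At an unadjusted p under 0.05 there were 3 for cerebellum minus cortex (5.30% of all genes), 1 for hippocampus minus cortex (3.17% of all genes) and 0 for cerebellum minus hippocampus (1.49% of all genes). The smallest p-values for cerebellum minus cortex were those of Doc2b (-1.76 ± 0.74), Unc13c (-1.25 ± 0.53) and Syt2 (-0.61 ± 0.27), each with edgeR adjusted p = 0.79. Doc2b was also the smallest for hippocampus minus cortex (-1.93 ± 0.80, adjusted p = 0.93), followed by Syn1 (-0.45 ± 0.31) and Unc13b (0.49 ± 0.33). For cerebellum minus hippocampus they were Syt2 (-0.47 ± 0.27), Unc13c (-0.57 ± 0.54) and Syn3 (0.38 ± 0.37). Averaged over the 3 regions, 0 of 35 passed (0.00405% of all genes) and 4 had an unadjusted p under 0.05 (5.76% of all genes), with the smallest p-values for Syt2 (0.31 ± 0.12), Slc17a7 (-0.24 ± 0.10) and Unc13b (-0.29 ± 0.13). Without knockout cortex library 1, Syt2, Unc13b, Unc13c and Doc2b passed in that average (0.677% of all genes).

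Paralogue shares were also set side by side for the genotypes, as a description with no test. In cerebellum the share of Unc13c was 66.0%, 68.9% and 68.3% in knockout mice and 70.3%, 66.7% and 67.2% in wild type, and that of Syt2 41.7%, 46.0% and 42.4% against 43.5%, 47.4% and 40.4%. Both overlapped. In hippocampus Unc13c had 5.24% and 7.81% in knockout mice and 3.88% and 5.06% in wild type. Syt2 had 2.43% and 2.61% against 2.13% and 1.58% there. In cortex Unc13c had 9.33% and 33.6% (knockout libraries 1 and 2) against 8.40% and 8.96%, and Syt2 5.53% and 9.10% against 4.71% and 4.96%. Both were higher in the knockout without overlap in hippocampus and in cortex. So was the sum of granule cell markers in hippocampus, whose part was not tested. Levels, a different measure, did not overlap between genotypes for 36.6% of all genes in hippocampus and 27.3% in cortex. No such rate was computed for shares. The gaps between genotypes were smaller than those between cerebellum and the other regions.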

How the data were processed

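RNA was extracted with TRIzol, treated with DNase I and sequenced as Illumina libraries, per the labels' protocols. The authors deposited 1 table of gene counts, whole numbers that are not normalized. Trim Galore 0.6.4, cutadapt 2.10, STAR 2.7.3a, featureCounts 2.0.1 and the build GRCm38.p6 (mm10) are named in the submitters' processing notes. Whether strand was used in counting is not given in the sources used here. Totals were 20055166 to 38770999 reads per library, which bounds counting error only. Ensembl IDs were joined to GENCODE M21, and 99.2% matched.

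Genes were filtered with filterByExpr over 6 groups of region and genotype, which left 24680, scaled by TMM and tested with edgeR 4.0.16 (R 4.3.3, robust quasi-likelihood, 8 residual degrees of freedom), adjusting over all genes by Benjamini-Hochberg at 0.05. Region contrasts average both genotypes. The fit was checked on simulated counts with the same spread for every gene and no library set apart. That check does not cover libraries such as those that stood apart here. DESeq2 1.42.0, limma-voom 3.58.1, other scalings, no filter, single regions, replicate blocks and leaving out each library were alternatives.

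The cerebellar numbers 1 to 3 occur in both genotypes. Deviations from group means correlated over 15799 genes at 0.312, 0.809 and 0.425 for the same-numbered pairs, each over 0.1. On that ground the numbers paired these libraries in an alternative fit, while the main fit had no replicate block. Knockout library 1 with wild-type library 3 gave 0.377, and knockout library 3 with wild-type library 1 gave 0.515. The bound therefore does not separate same-numbered from other pairs, and the pairing remains an assumption. The paired fit had 2 residual degrees of freedom. Cortex and hippocampus share only number 2 between genotypes.

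The genes and lists were chosen with earlier results of these data known. Per-library values are given for families whose shares differed without overlap between regions, and for Slc17a7, and also for Stx1a and Erc2, chosen after their values were seen. In genotype comparisons the 3 smallest p-values are named, as are up to 3 genes for each further list and direction by largest fold change, a few of which are not reported here. The sets of libraries that stood apart were chosen after seeing the data. Promoters of 28 of the 35 genes were matched in RefSeq.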

Additional observations from a re-analysis of the deposited data

How the results depend on the processing

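Of the genes called, 21 of 27 kept the same call for cerebellum against cortex, 23 of 28 for cerebellum against hippocampus and 2 of 10 for hippocampus against cortex in every alternative fitted. With genotype and number as a replicate block, Syt7 against cortex (-0.30) and Doc2a against hippocampus (-1.47) lost their calls in cerebellum, Syn3 (-0.38) gained one against cortex, and Cplx1 (-0.62) and Cplx3 (-1.28) gained one between hippocampus and cortex. Same-numbered libraries of 1 genotype from different regions correlated at -0.0911 to 0.411, over 0.1 in 10 of 12 pairs. These may share a mouse. The main fit had no replicate block and treated them as independent, which these correlations do not show them to be. For hippocampus against cortex the genes called of the 35 numbered 20 without the 3 libraries that stood apart, 4 in wild-type libraries alone and 4 in knockout libraries alone, and all genes called 5238, 1368 and 930. In wild-type libraries alone, 7567 genes were called for cerebellum against cortex and 7604 against hippocampus.

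For knockout against wild type, DESeq2 called 2 genes in cerebellum, 50 in cortex, 2 in hippocampus and 81 in the mean of 3 regions. The cerebellar replicate block called 104, the single hippocampal region 7, no filter 1 in cortex and 11 in the mean, limma-voom 2 in the mean and the random replicate block 0. With 1 library left out, genes called were 10161 to 13124 (cerebellum against cortex), 9679 to 12221 (cerebellum against hippocampus), 1565 to 4195 (hippocampus against cortex), 0 to 2884 (genotype in cortex), 0 to 0 (genotype in cerebellum and in hippocampus) and 0 to 167 (mean). Interactions gave 0 to 1459, 0 to 759 and 0 to 0. Counts among the 35 genes were 26 to 29, 26 to 29, 5 to 12, 0 to 6, 0 to 0 and 0 to 4 in that order, and 0 to 4, 0 to 3 and 0 to 0 for interactions.

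The genotype difference turned round in 2 named genes when 1 library was left out. Doc2b in cortex ran between -0.12 (without knockout library 2) and 2.37, and Syn3 in hippocampus between -0.75 and 0.14 (without wild-type library 2). The cause was not tested. A region with 2 libraries per genotype borrows its spread from the other groups, and the lone library left by an omission is assumed to vary like them.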
